A study of Mus musculus with 8 samples.

Results

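Constitutive promoter peaks are the stretches of accessible chromatin within 2 kb of a transcription start site (TSS) that the study's peak calling recorded in untreated macrophages, in macrophages stimulated through TLR4, and in macrophages stimulated while HDAC3 was inhibited. Of the 9698 merged ATAC-seq peaks of the wild type (WT) table, 2753 belonged to the peak sets of all 3 conditions, and 1917 of these lay within 2 kb of a TSS. These 1917 peaks, 19.8% of all peaks and 39.0% of the 4913 promoter peaks, are described here. They were selected by measured values, since a peak enters the set of a condition only when it is called reproducibly in that condition's libraries. The WT levels and the contrasts between WT conditions are therefore given as descriptions.

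Bone marrow-derived macrophages (BMDMs) were differentiated from C57BL/6 mice that were 8 to 12 wk old, and chromatin accessibility was measured by ATAC-seq. The study asked how the NCoR/HDAC3 complex takes part in the response to TLR4. WT cells received vehicle (Veh), Kdo2 lipid A (KLA, a TLR4 agonist that mimics bacterial lipopolysaccharide) for 6 h, or KLA for 6 h together with RGFP966, an inhibitor of HDAC3, with 2 libraries per condition. Cells were serum starved for 12 h before stimulation, and by the study's methods the inhibitor was present from the start of the starvation. The treatment entry in the labels of the RGFP966 + KLA pair names only KLA, so the group rests on the library titles. A separate table holds 2 Veh libraries of BMDMs from mice with floxed Ncor1 alleles (NCoR f/f, without Cre), which the selection did not use. Crossing such mice to LysM-Cre, which is active in myeloid cells, gave the study's NCoR knockout (NKO). Nothing in the labels ties paired libraries to separate animals or cultures, so p-values measure the spread between these libraries only.

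The 6 WT libraries held 116733 to 202523 tags in peaks, which was 1.40 to 2.06% of all their tags. Levels are tags per 10000000 tags in peaks, and 1 tag was worth 49.4 to 85.7 on this scale. A constitutive promoter peak held a median of 17 to 28 tags per library, and a count of 20 tags has an exact 95% Poisson interval of 12.2 to 30.9, which covers counting error only. Of the 12 macrophage markers examined (Csf1r, Itgam, Cd68 and others), Cd68 had a promoter peak in the WT table, 5 had any peak and none had a constitutive promoter peak. Of the 10 neutrophil markers 1, Camp, had a promoter peak in the same table, so its promoter peaks do not separate these cell types, and T cell, B cell, erythroid and fibroblast markers had 0 of 10 each. In the deeper NCoR f/f libraries' table, promoter peaks were found at 8 of the 12, against at most 2 of 10 markers of neutrophils, T cells, B cells, erythroid cells or fibroblasts.

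As background, most mammalian promoters that are used in many cell types are rich in CpG dinucleotides, lie in nucleosome-depleted chromatin and are bound by broadly expressed factors such as SP/KLF proteins, NFY, ETS proteins and NRF1. The regulatory elements that set macrophage identity and the inflammatory response lie largely at enhancers, where PU.1 works together with AP-1 and C/EBP factors and where NFκB arrives after TLR4 engagement. HDAC3 is the deacetylase subunit of the NCoR and SMRT corepressor complexes.

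The sequences that follow are the central bases of chosen peaks, read from the GRCm38 (mm10) genome on its plus strand and trimmed where GENCODE annotates a UTR. Capitals mark matches, on either strand, to the 12 motif strings described further on. The first 6 show the motifs of broadly used promoters. Dnajc3, 4932412D23Rik, Etfdh, Vrk1 and Efcab14 were the peaks with the highest level per kb that hold the SP/KLF, NFY, NRF1, ZNF143 and CRE strings, and Tfg was 1 of the 10 that hold 3 of the promoter motifs. These examples were chosen after their values were seen.
Dnajc3, chr14:118937698-118937897: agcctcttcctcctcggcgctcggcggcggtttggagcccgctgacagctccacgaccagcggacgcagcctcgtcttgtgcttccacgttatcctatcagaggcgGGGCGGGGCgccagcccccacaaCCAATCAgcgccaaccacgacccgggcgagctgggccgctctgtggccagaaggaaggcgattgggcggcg
4932412D23Rik, chr16:42875474-42875673: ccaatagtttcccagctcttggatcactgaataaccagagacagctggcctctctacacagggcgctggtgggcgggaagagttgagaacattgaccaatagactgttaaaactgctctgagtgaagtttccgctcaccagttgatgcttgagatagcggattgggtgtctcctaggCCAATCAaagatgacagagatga
Tfg, chr16:56717472-56717671: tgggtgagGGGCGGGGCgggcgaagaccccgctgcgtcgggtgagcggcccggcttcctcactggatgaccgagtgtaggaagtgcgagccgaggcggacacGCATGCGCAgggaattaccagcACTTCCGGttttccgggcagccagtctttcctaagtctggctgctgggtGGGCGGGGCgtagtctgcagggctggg
Etfdh, chr3:79628864-79628987: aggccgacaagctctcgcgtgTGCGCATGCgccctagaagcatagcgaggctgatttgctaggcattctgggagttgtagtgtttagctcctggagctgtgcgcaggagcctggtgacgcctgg
Vrk1, chr12:106010084-106010227: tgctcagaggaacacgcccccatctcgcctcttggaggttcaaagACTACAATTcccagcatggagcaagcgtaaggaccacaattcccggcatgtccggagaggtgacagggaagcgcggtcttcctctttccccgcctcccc
Efcab14, chr4:115737580-115737743: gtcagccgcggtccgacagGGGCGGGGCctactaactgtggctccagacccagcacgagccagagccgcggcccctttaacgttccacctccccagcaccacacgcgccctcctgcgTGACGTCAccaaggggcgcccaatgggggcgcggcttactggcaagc
The next 4 were fixed by their place among the levels and lists. Rn45s, the 45S pre-ribosomal RNA unit, held the highest peak with readable sequence, Fam160a2 had the smallest range between the conditions, Rps21 was the highest ribosomal protein peak, and Kdm4a was the highest peak of the NCoR complex list. None but Fam160a2, with a TATA string, holds a motif of the panel in the bases shown.
Rn45s, chr17:39844375-39844574: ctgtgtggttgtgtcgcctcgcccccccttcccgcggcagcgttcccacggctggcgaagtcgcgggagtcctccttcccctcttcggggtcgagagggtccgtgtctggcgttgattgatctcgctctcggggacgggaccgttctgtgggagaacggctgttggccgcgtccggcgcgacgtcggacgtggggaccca
Fam160a2, chr7:105400223-105400422: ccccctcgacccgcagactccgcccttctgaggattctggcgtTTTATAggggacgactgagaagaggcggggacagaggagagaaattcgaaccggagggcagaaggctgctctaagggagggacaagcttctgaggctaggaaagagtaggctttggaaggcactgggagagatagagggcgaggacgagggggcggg
Rps21, chr2:180257144-180257343: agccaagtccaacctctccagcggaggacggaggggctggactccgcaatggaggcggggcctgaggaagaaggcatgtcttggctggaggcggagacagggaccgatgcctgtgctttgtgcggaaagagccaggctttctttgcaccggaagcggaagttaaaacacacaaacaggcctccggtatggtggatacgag
Kdm4a, chr4:118180044-118180203: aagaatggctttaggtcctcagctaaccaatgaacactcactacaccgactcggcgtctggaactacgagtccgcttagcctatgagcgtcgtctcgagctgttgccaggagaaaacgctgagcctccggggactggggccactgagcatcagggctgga
The following 4 are peaks at which the condition contrasts passed the thresholds given below, and none of them holds a string of the panel in the bases shown.
Ccl2, chr11:82035391-82035570: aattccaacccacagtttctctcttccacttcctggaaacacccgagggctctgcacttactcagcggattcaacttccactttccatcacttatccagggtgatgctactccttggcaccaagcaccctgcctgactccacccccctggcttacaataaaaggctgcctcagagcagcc
Nrp1, chr8:128357234-128357433: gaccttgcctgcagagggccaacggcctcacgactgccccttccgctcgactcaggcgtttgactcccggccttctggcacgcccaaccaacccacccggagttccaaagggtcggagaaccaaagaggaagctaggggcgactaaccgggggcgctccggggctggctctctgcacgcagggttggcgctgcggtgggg
Tlr4, chr4:66827459-66827583: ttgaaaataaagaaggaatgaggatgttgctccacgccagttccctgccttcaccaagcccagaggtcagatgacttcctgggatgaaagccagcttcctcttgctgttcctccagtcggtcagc
Map9, chr3:82357910-82358043: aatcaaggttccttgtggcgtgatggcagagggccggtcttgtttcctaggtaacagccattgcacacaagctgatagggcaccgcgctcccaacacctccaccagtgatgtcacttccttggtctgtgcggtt
For contrast, the last is a constitutive peak beyond 2 kb of a TSS, annotated to Syce1l, that holds both a PU.1 and an AP-1 string.
Syce1l, chr8:113656239-113656438: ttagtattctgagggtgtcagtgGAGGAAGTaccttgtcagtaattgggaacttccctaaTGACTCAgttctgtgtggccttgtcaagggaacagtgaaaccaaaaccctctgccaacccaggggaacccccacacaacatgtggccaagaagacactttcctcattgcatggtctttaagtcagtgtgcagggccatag

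The constitutive promoter peaks carried 1878 gene names. By the deposited annotation, 1830 peaks were assigned to protein-coding genes, 79 to noncoding RNA genes, 6 to pseudogenes and 2 to a ribosomal RNA gene. The peaks sat just upstream of the start site, with a median distance of -79 bp, quartiles of -137 and -26 bp, and 81.4% of the peaks upstream. Within 500 bp of the TSS lay 94.7% of them, against 86.7% of the other promoter peaks, which are those missing from the set of at least 1 condition. Their median width was 312 bp, against 255 bp. By annotation 1804 were labelled promoter-TSS, 49 intron, 25 5′ UTR and 19 intergenic. Just inside the limit of 2 kb were the peaks of Csgalnact2 at -1970 bp, Gm6936 at 1948 bp and 2700054A10Rik at 1938 bp. Just outside it were constitutive peaks at Brox (-2024 bp), Elmo1 (2037 bp) and Lrrc66 (2041 bp). The first 3 held 9 to 29 tags per library, Elmo1 and Lrrc66 10 to 29, and Brox 59 to 92. No peak lay on the Y chromosome, 21 lay on the X, and 6 lay on contigs that are not placed on a chromosome. Most genes had 1 such peak, 33 had 2, and Cic, Sfi1 and Pisd-ps3 had 3. Cic, a transcriptional repressor, had peaks at -198 bp, 435 bp and -115 bp, each relative to its nearest TSS.

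The 1917 peaks contained 33.6 and 32.3% of the tags in peaks with Veh, 32.3 and 31.6% with KLA, and 30.4 and 30.5% with RGFP966 + KLA. The Veh and KLA libraries met at 32.3%, and both inhibitor libraries lay below the other 4. The 808 constitutive peaks beyond 2 kb (constitutive distal peaks) held 13.4 to 16.6%, and the 2996 other promoter peaks 23.2 to 25.4%. The median level of a constitutive promoter peak was 1516 in Veh, 1466 in KLA and 1387 in RGFP966 + KLA, and the 2 libraries of each condition gave 1551 and 1486, 1444 and 1456, and 1383 and 1390. The median of all peaks was 871, 851 and 856 in the same conditions. Scaled to all tags of the library instead, the medians were 26.4, 23.4 and 25.2 tags per 10000000, so the order of the conditions depended on the scale.

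**Figure D1:**
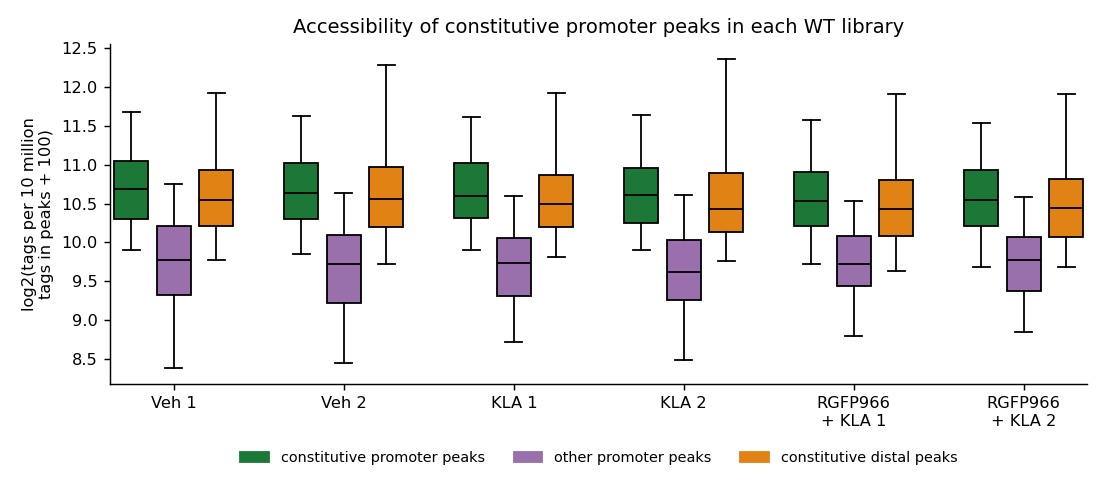
Levels of peaks in each of the 6 WT libraries, as log2 of tags per 10000000 tags in peaks with a pseudocount. Boxes show the quartiles and median and whiskers the 5th to 95th percentiles of 1917 constitutive promoter peaks, 2996 other promoter peaks and 808 constitutive distal peaks. The constitutive promoter boxes sit above the other promoter boxes in every library, which the selection by detection favours, and the medians of the constitutive promoter peaks run from 1383 to 1551.

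Few constitutive promoter peaks stood out by height. The mean over the 6 libraries ran from 10.8 to 549 tags with quartiles of 18.7 and 29.3, only 31 peaks averaged 60 tags or more, and the 10 highest together held 3.31% of the tags in all 1917. The highest level per kb belonged to repeated sequence. Pisd-ps3, a pseudogene of phosphatidylserine decarboxylase on the unplaced contig JH584304, held 186 and 189 tags in Veh, 226 and 156 in KLA and 270 and 247 in RGFP966 + KLA at its main peak. At chr17:39844051-39844900 Rn45s held 445 and 545, 605 and 459, and 617 and 621 tags in the same order. Tags from repeated copies of these units cannot be assigned to 1 locus, so their levels are uncertain. Sfi1, a centrosomal protein gene on chromosome 11, had 3 peaks with 46 to 136 tags per library. Among the rest, Hjurp, the chaperone that loads CENP-A at centromeres, was highest, with 74 and 67 tags in Veh, 97 and 58 in KLA and 90 and 93 in RGFP966 + KLA, or 17499 per kb.
After it came Pja2, a ubiquitin ligase, at 16762 per kb, the uncharacterized 4932412D23Rik at 15126, Kbtbd8, an adaptor of CUL3 ligases, at 14647, and Kifap3, the kinesin-2 adaptor, at 14636. Sp4, a GC-box factor, followed with 13803, Fto, an RNA demethylase, with 13739, and Chd6, a chromatin remodeler, with 13519. At Hjurp both Veh levels (5739 and 5532) lay above both KLA levels (5187 and 4969) and both RGFP966 + KLA levels (4444 and 4789), a difference that was not called. Veh and KLA libraries did not overlap at 36.0% of constitutive promoter peaks and 47.9% of all peaks. For Veh and RGFP966 + KLA these shares were 43.0 and 54.7%. These 8 peaks all had a counterpart in the NCoR f/f libraries, with 45 to 127 tags in the first and 73 to 170 in the second.
The steadiest peaks with 60 tags or more were those of Fam160a2, Pja2, Ypel5 and Mtmr4, whose 3 condition means spanned 0.055, 0.0906, 0.131 and 0.14 on the log2 scale. Fam160a2, part of an endosome-linked FTS-Hook complex, had mean levels of 4032 in Veh, 4178 in KLA and 4022 in RGFP966 + KLA.

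The genes of the constitutive promoter peaks were counted by role, with each count set against the genes of each list that had any promoter peak in the WT table. For ribosomal proteins 11 of 25 such genes had a constitutive promoter peak, led by Rps21 with 30 and 25 tags in Veh, 41 and 29 in KLA and 49 and 45 in RGFP966 + KLA. Mitochondrial respiration had 15 of 34 (Cox18, Atp5g1, Atp5j), mitochondrial ribosomes 6 of 21 (Mrps14) and the proteasome 6 of 16 (Psmc4, Psmc6). Splicing and hnRNP proteins had 8 of 36 (Hnrnpf), genes with Eif or Eef names 19 of 32 (Eif2ak3, Eif4g2) and zinc finger proteins 40 of 144 (Zbtb5, Zfp386). The Eif and Eef names cover translation factors and also regulators of them, such as the kinase gene Eif2ak3. Of all promoter peaks 39.0% were constitutive. That is a share of peaks, while the list shares count genes, so they are not directly comparable. The 3 such peaks at histone genes belonged to the variants H2afz, H2afv and H2afj, and none to a replication-dependent histone. MicroRNA names were attached to 8 peaks, among them Mir210, induced by hypoxia, and Mir22hg, the host transcript of miR-22. Of the 15 reference genes often used for normalization, 10 had a promoter peak. A constitutive one was found at 2, Ywhaz (779 bp from the TSS) and Gusb (35 bp).

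The list of LXR and SREBP lipid genes gave 5 of 7, among them Hmgcs1, an enzyme of the mevalonate pathway, Sqle, squalene epoxidase, Srebf2, which encodes the transcription factor SREBP2, and Insig1, which retains the SREBP complex in the ER and had a pair of peaks. Hmgcs1 held 47 and 32 tags in Veh, 59 and 37 in KLA and 55 and 55 in RGFP966 + KLA. The other 2 genes of the list with a promoter peak, Abca1 and Mylip, are LXR targets and their promoter peaks were each missing from at least 1 set.

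Macrophage lineage factors gave 7 of 12 genes, among them Cebpa, Klf2, Nfe2l2, Klf6, Bach1 and Mitf. Cebpa, a factor of myeloid differentiation, held 25 and 23 tags in Veh, 24 and 17 in KLA and 39 and 37 in RGFP966 + KLA. Of the TLR4 pathway 4 of 9 genes had one, Tlr4 itself, Ticam1 (the adaptor TRIF), Tab3 and the kinase gene Tbk1. Of the NFκB family 2 of 6 had one, Relb (754 bp from the TSS) and Nfkbib (77 bp). The promoter peaks of Nfkb1, Rel, Nfkbia and Nfkbiz were each absent from a set. AP-1 and bZIP factors had 2 of 10, Atf2 and Crem. Cytokines and chemokines had 2 of 5, Ccl2 and Ccl3, while Cxcl2, Ptgs2 and Il18 had promoter peaks that were not in every set. None of the 10 genes for IRF, STAT and interferon-stimulated proteins with a promoter peak (Irf1, Stat2, Mx1 and others) had a constitutive one. Zfp36 was the single one of 14 feedback and mRNA decay genes such as Socs3, Pim1 and the Dusp phosphatases. Its peak lay far from the start site, at -1920 bp. The 13 genes of the NCoR and HDAC3 complex list gave 2 of 5, Kdm4a with 25 and 22, 28 and 17, and 37 and 47 tags and Hdac1 with 19 and 18, 21 and 15, and 21 and 24. Of the 8 genes at the center of the study (Ncor1, Hdac3, Ppargc1b, Ep300, Traf6, Tbk1, Mapk3 and Rela), Tbk1 alone had such a peak, with 11 and 7 tags in Veh, 34 and 12 in KLA and 19 and 24 in RGFP966 + KLA. At Tbk1 both KLA levels (1818 and 1028) exceeded both Veh levels (853 and 578). The libraries of these conditions did not overlap at 36.0% of constitutive promoter peaks and 47.9% of all peaks. The log2 difference at Tbk1 of 1.06 ± 0.39 (SE) had an adjusted p of 0.0979 in edgeR's quasi-likelihood test.

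Sequence composition was not used in the selection, and it set promoter peaks apart from distal ones more than constitutive from other promoter peaks. In the central 200 bp of the 1911 peaks on placed chromosomes the median GC content was 65.5%, the same as in other promoter peaks, against 50.0% in constitutive distal peaks. The ratio of observed to expected CpG had a median of 0.842, against 0.827 in other promoter peaks, 0.255 in constitutive distal peaks and 0.396 in 32851 RefSeq promoters (GRCm38.p6) read in a window of the same length. A ratio of 0.6 or more was reached by 88.2% of constitutive promoter peaks, by 78.0% of other promoter peaks and by 17.8% of constitutive distal peaks. Another gene started on the opposite strand within 1 kb at 500 of the 1911 peaks (26.2%), against 20.0% of other promoter peaks. Distal peaks were not compared, as their distance from a TSS is part of how they were defined. Both genes of the pair were protein-coding at 272 (14.2%), against 10.7% of other promoter peaks. Constitutive promoter peaks lay nearer to a TSS than other promoter peaks, and these shares were not matched for distance.

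Motifs were counted as exact strings on both strands in the same 200 bp: CCAATCA for NFY, GGGCGGGGC for SP/KLF, CCGGAAGT for ETS, TGCGCATGC for NRF1, TGACGTCA for CRE, AAGATGGCG for YY1, ACTACAATT for ZNF143, CACGTG for E-boxes, TATAAA for TATA, GAGGAAGT for PU.1, TGACTCA for AP-1, and GGGAATTTC, GGGACTTTC or GGAAATTCC for NFκB. The ETS and PU.1 strings share their last letters but cannot match the same bases. A match is a string and not a bound site.
Shares are given with counting intervals and were not tested. The NFY string was found in 352 constitutive promoter peaks (18.4%, 95% Wilson interval 16.7 to 20.2%), in 12% of other promoter peaks (10.9 to 13.2%), in 4.69% of constitutive distal peaks, in 9.23% of all peaks and in 6.63% of RefSeq promoters. SP/KLF was the most frequent, in 511 peaks (26.7%, 24.8 to 28.8%), against 23.4% (22 to 25.0%) of other promoter peaks, 3.35% of constitutive distal peaks and 9.88% of RefSeq promoters. ETS (7.06 and 6.78%), NRF1 (3.19 and 3.04%) and CRE (3.24 and 2.70%) were about as frequent in constitutive as in other promoter peaks, with overlapping intervals, and each was rarer in RefSeq promoters, at 3.23, 1.3 and 1.63%. ZNF143 was found at 20 peaks (1.05%, 0.679 to 1.61%), against 0.501% (0.304 to 0.825%) of other promoter peaks.
E-boxes stood in 7.22% of constitutive promoter peaks, against 8.55% of other promoter peaks, 3.62% of constitutive distal peaks, 6.23% of all peaks and 5.36% of RefSeq promoters. TATA stood in 1.1%, against 2.64% of other promoter peaks, 6.03% of constitutive distal peaks and 9.46% of RefSeq promoters. AP-1 stood in 2.46% (1.85 to 3.26%), against 4.64% (3.94 to 5.45%) of other promoter peaks and 25.9% of constitutive distal peaks, and PU.1 in 2.93%, 3.41% and 12.7%. The NFκB strings were found in 3 constitutive promoter peaks, at Cyld, Fchsd2 and Cep112 (0.157%, 0.0534 to 0.461%), against 0.935% (0.648 to 1.35%) of other promoter peaks. Cyld encodes a deubiquitinase that restrains NFκB signaling. YY1 depended on the window, at 0.89% in 200 bp and 2.72% in the whole peak, against 2.27 and 3.17% of other promoter peaks, and it was found in 0 of 746 constitutive distal peaks in 200 bp.
At least 1 of the 7 strings for NFY, SP/KLF, ETS, NRF1, CRE, YY1 and ZNF143 was present in all but 48.4% of constitutive promoter peaks and in all but 56.5% of other promoter peaks. A pair was held by 151 peaks and 3 by 10 peaks. Both NFY and SP/KLF, as in the Dnajc3 sequence printed above, were held by 71 peaks (3.72%), against 2.17% of other promoter peaks.

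**Figure D2:**
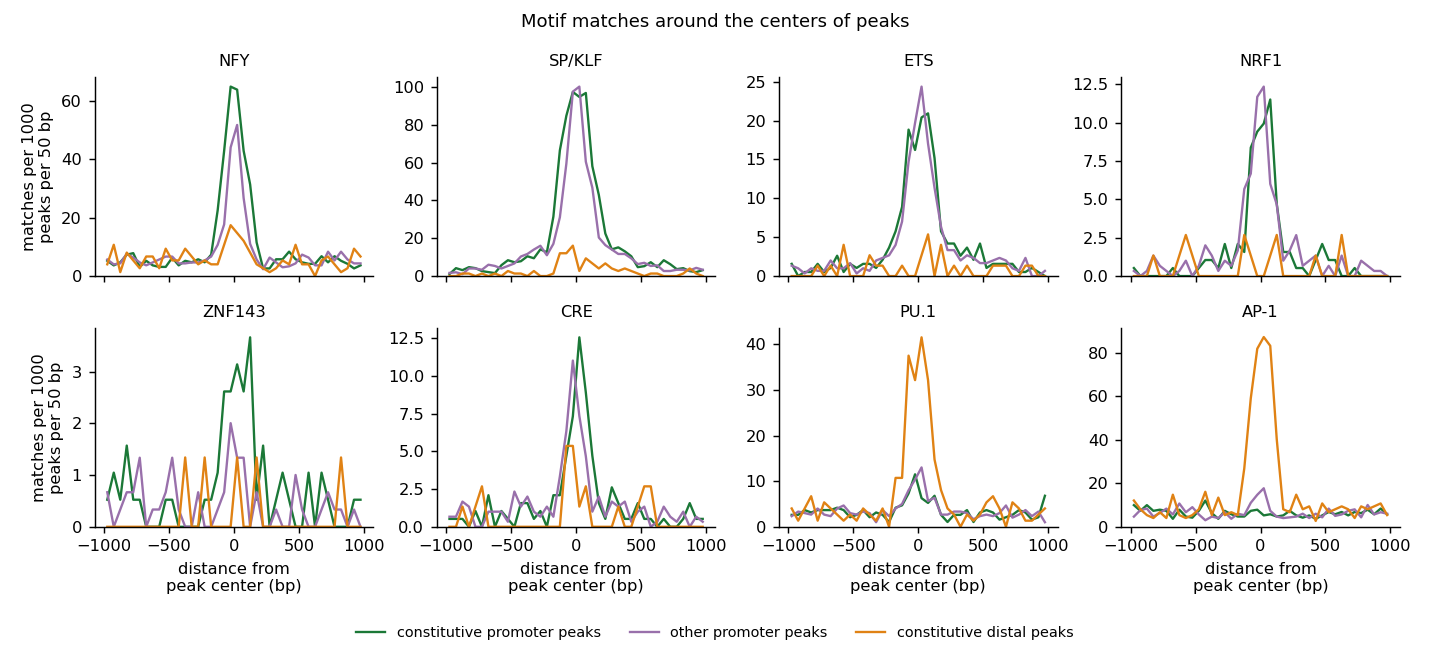
Matches to 8 motif strings by distance from the peak center (bp, 50 bp bins), as matches per 1000 peaks, for constitutive promoter peaks (green), other promoter peaks (purple) and constitutive distal peaks (orange). NFY, SP/KLF, ETS, NRF1, CRE and ZNF143 matches gather within about 200 bp of the centers of promoter peaks, and PU.1 and AP-1 matches at the centers of distal peaks.

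Constitutive promoter peaks were also the deeper ones, with a median of 23 tags against 12 in other promoter peaks, so the NFY share was compared in bands of mean tags set at their quartiles. In the band up to 18.7 tags 16.3% (13.3 to 19.8%) of 496 constitutive and 12% (10.8 to 13.3%) of 2767 other promoter peaks held the string. In the band above 29.3 tags the shares were 23.1% (19.5 to 27.1%) of 476 and 10.0% (3.46 to 25.6%) of 30. The intervals touched or overlapped in every band, and the number of other promoter peaks above the lowest band was small. Among constitutive promoter peaks the NFY share was 14.8 to 23.1% over the bands, and that of SP/KLF 23.7 to 28.6%.

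The NCoR f/f table gave a view of the same loci in libraries outside the selection. Its 2 Veh libraries held 372367 and 509741 tags in 24867 peaks, merged from 4 peak sets: NCoR f/f (NWT) and NCoR-deficient (NKO) cells, each with Veh and with KLA. Of the 1917 constitutive promoter peaks 1916 overlapped a peak of this table by 1 bp or more, and 96.9% did so over 50% of both peaks. The exception was Ccl3 at chr11:83649340-83649716, which encodes the chemokine MIP-1α and held 12 and 15 tags in Veh, 19 and 19 in KLA and 15 and 19 in RGFP966 + KLA in WT cells. An overlap alone said little, as 98.3% of other promoter peaks had one too.
Membership in the peak sets of that table varied more. A counterpart present in all 4 sets was found for 1631 constitutive promoter peaks (85.1%, Wilson interval 83.4 to 86.6%), for 50.0% (48.2 to 51.8%) of other promoter peaks, for 76.5% (73.4 to 79.3%) of constitutive distal peaks and for 48.0% of all peaks. By set the shares of constitutive promoter peaks were 97.1% in NWT Veh, 98.0% in NWT KLA, 90.7% in NKO Veh and 97.1% in NKO KLA, and those of other promoter peaks 86.3, 91.9, 59.3 and 84.0%. Libraries of NWT KLA and of NKO cells were not analysed here, so it was not tested whether the lower shares of the NKO Veh set moved with its depth.
Within bands of WT tags the difference was largest among shallow peaks. Up to 18.7 mean tags, 76.5% (72.5 to 80%) of 497 constitutive and 47.8% (46.0 to 49.7%) of 2768 other promoter peaks were in all 4 sets, although the medians in this band were 16.7 and 11.7 tags. In the next band the shares were 87.1 and 78.3%, with medians of 20.7 and 20.3 tags and overlapping intervals. In the third they were 88.5% (85.2 to 91.1%) and 71.7% (57.5 to 82.7%), and in the highest 88.7% (85.6 to 91.3%) of 479 and 73.3% (55.6 to 85.8%) of 30, which overlapped narrowly.
The levels carried over as well. At the counterparts the NCoR f/f libraries held medians of 30 and 44 tags, against 12 and 16 over all peaks of the table, and the counterparts, 7.70% of its peaks, held 16.9 and 17.8% of its tags in peaks. Across the 1916 peaks, which are not independent replicates and share base composition and copy number, log2 level per kb in WT Veh and NCoR f/f Veh had a Pearson r of 0.671 and a Spearman rho of 0.608. The median NCoR f/f level was 2398 per kb at the counterparts and 1251 at all promoter peaks of that table. Peaks with ZNF143 strings had a median of 2685 per kb and peaks with NFY strings one of 2499 in NCoR f/f cells, and peaks with YY1 and AP-1 strings had 1913 and 2124, against 2396 for all placed peaks. In WT the medians of the same 4 groups were 5367, 4927, 3924 and 4030 per kb, against 4616.

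**Figure D3:**
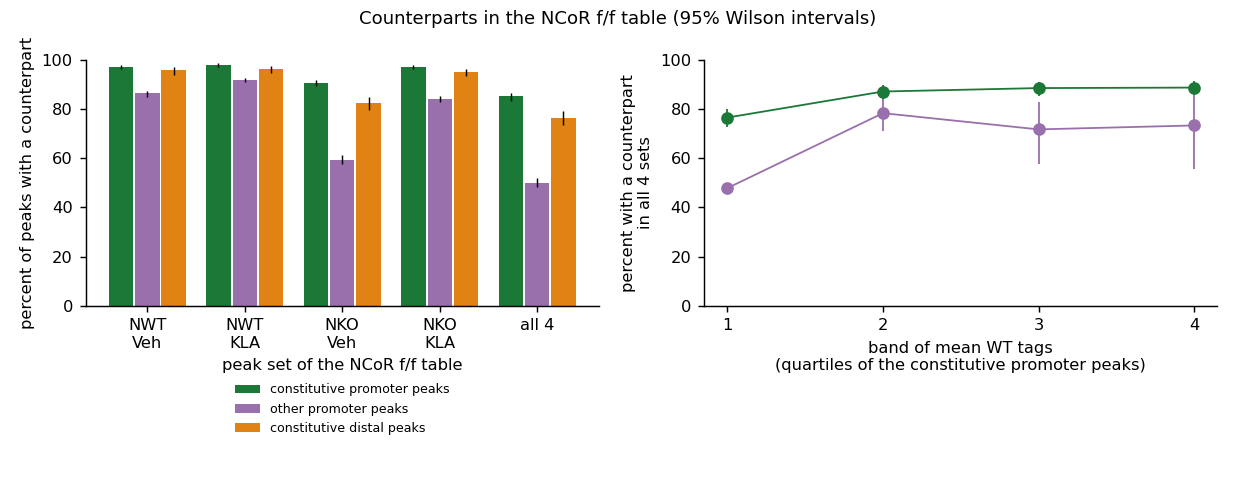
Left, percent of peaks whose counterpart in the NCoR f/f table belongs to each of its 4 peak sets, or to all 4, for constitutive promoter, other promoter and constitutive distal peaks. Right, percent in all 4 sets by band of mean WT tags for constitutive (green) and other (purple) promoter peaks. Bars and points are shares with 95% Wilson intervals. The share in all 4 sets is 85.1% for constitutive promoter peaks and 50.0% for other promoter peaks.

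Differences between conditions were small at nearly all constitutive promoter peaks, as the selection on presence in every condition favours. In edgeR's quasi-likelihood test over the whole WT table, with an adjusted p (Benjamini-Hochberg) under 0.05 and a fold change over 2, none was called gained and 3 were called lost for KLA against Veh. Over all 9698 peaks 3.30% were called gained and 1.73% lost in that comparison. For RGFP966 + KLA against KLA none was called in either direction, where 0.237% of all peaks were called gained and 0.103% lost. RGFP966 + KLA against Veh called 1 gained and 15 lost, against backgrounds of 6.89 and 2.99%. At an unadjusted p under 0.05 edgeR listed 124, 116 and 193 constitutive promoter peaks in the 3 comparisons, or 6.47, 6.05 and 10.1% of them, against 19.5, 13.8 and 25.4% of all peaks. DESeq2 with its own size factors called none of them, or of any other peak, in the 3 comparisons, and listed 10, 7 and 22 of them at an unadjusted p under 0.05. All calls named here therefore depend on the test used. The 15 lost peaks became 6 without Veh replicate 1, 5 without RGFP966 + KLA replicate 1, 8 without RGFP966 + KLA replicate 2 and 2 when libraries were scaled to all their tags, and the gained peak was not called without Veh replicate 2.
The log2 difference lay within 0.5 of no change at 85.7, 87.3 and 80.9% of constitutive promoter peaks in the 3 comparisons, taken in the order just given, against 57.4, 67.1 and 54.8% of all peaks. Constitutive promoter peaks held a median of 23 tags, constitutive distal peaks 20.5 and all peaks 13.2. Low counts scatter more, and these shares were not compared at equal depth. The median differences were -0.03, -0.08 and -0.12, and those of all peaks 0.02, 0.03 and 0.04. Scaled to all tags of each library they were -0.12, 0.10 and -0.03, beside -0.05, 0.21 and 0.14 over all peaks, so the sign for RGFP966 + KLA against KLA turned. Gained peaks made up 65.6, 69.7 and 69.7% of all calls in the table, 62.0, 88.7 and 82.8% when scaled to all tags, 56.3, 26.4 and 50.2% with loess offsets and 63.8, 59.5 and 63.9% with TMM factors. The constitutive distal peaks, selected in the same way, gave similar shares, with 82.7, 85.1 and 77.5% within 0.5, medians of -0.07, -0.14 and -0.21, and 2 gained and 3 lost, none, and 3 gained and 14 lost peaks called. The comparisons with Veh share the Veh libraries, and those with KLA share the KLA libraries.

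**Figure D4:**
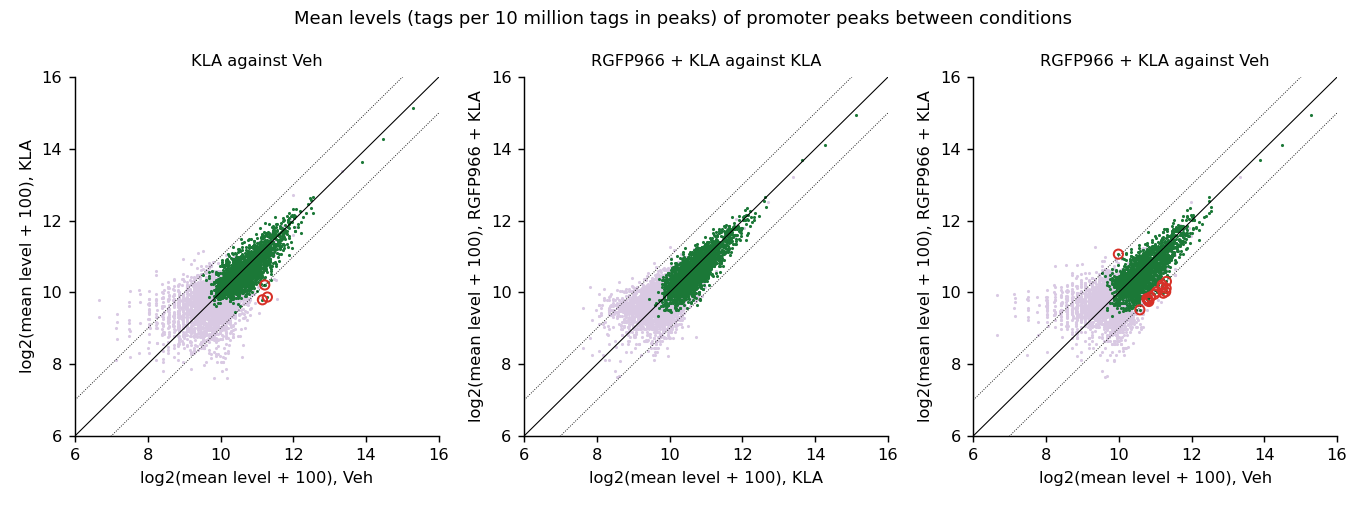
Mean level in 2 libraries of each condition, as log2 of tags per 10000000 tags in peaks with a pseudocount, for constitutive promoter peaks (green) and other promoter peaks (light purple). Solid lines mark equal levels and dotted lines a 2-fold difference, and red circles mark the constitutive promoter peaks past both thresholds in edgeR: 3, 0 and 16 from left to right.

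Of the 3 peaks called lower with KLA, 1 lay at an inflammatory gene. Ccl2, which encodes the monocyte chemoattractant MCP-1, had its peak at chr11:82035340-82035643, at a distance of -86 bp from the TSS, with 31 and 29 tags in Veh, 20 and 7 in KLA and 16 and 21 in RGFP966 + KLA. The scaled levels were 2404 and 2395, 1069 and 600, and 790 and 1081, so both Veh libraries lay above the other 4. For KLA against Veh, with 2 libraries per condition, the log2 difference was -1.43 ± 0.33 (SE from the edgeR fit), with an adjusted p of 0.00496. For RGFP966 + KLA against Veh the same fit gave -1.36 ± 0.30 and an adjusted p of 0.0023. RGFP966 + KLA against KLA gave 0.07 ± 0.37 and an adjusted p of 0.958. Ccl2 was the one peak called in both comparisons with Veh and had a CpG ratio of 0.156.
Nrp1, a coreceptor for semaphorins and VEGF, had its peak at a distance of -1739 bp from the TSS, with 22 and 32 tags in Veh, 15 and 9 in KLA and 21 and 26 in RGFP966 + KLA, and it differed by -1.44 ± 0.34 for KLA against Veh (adjusted p = 0.00705). Lmnb1, which encodes lamin B1, held 30 and 27, 18 and 14, and 29 and 20 tags and differed by -1.11 ± 0.32 (adjusted p = 0.0263). At Nrp1 the inhibitor libraries lay between those of Veh and KLA on the scaled level. Leaving out 1 Veh or KLA library gave differences of -1.99 to -1.16 at Ccl2, -1.73 to -1.10 at Nrp1 and -1.24 to -0.92 at Lmnb1. None of the 3 calls held in every such fit. Lmnb1 was also not called when libraries were scaled to all their tags.
A further 3 passed the adjusted p at a fold of 2 or less, among them Tlr4 (-1.0 ± 0.31, adjusted p = 0.0449) and Chchd4, which serves protein import into mitochondria (0.99 ± 0.30, adjusted p = 0.0364).

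Against Veh, 15 peaks were called lower and 1 higher with RGFP966 + KLA. Tlr4, the receptor gene itself, held 29 and 27 tags in Veh, 23 and 11 in KLA and 24 and 19 in RGFP966 + KLA. Its log2 difference was -1.04 ± 0.29 (adjusted p = 0.0156), that of RGFP966 + KLA against KLA was -0.04 ± 0.33, and both Veh levels (2249 and 2229) exceeded the other 4. Birc6 and Birc2, which encode inhibitor-of-apoptosis proteins with ubiquitin-conjugating and ubiquitin ligase activity, were both among the 15. Birc6 held 26 and 31, 29 and 19, and 19 and 17 tags (-1.32 ± 0.30, adjusted p = 0.00289), and its second peak, 78 bp downstream of the TSS, was not called. Birc2 held 19 and 25, 25 and 20, and 12 and 21 tags (-1.07 ± 0.34, adjusted p = 0.0326).
Metabolic and protein-folding genes followed. Pcx, pyruvate carboxylase, held 39 and 22, 30 and 22, and 21 and 19 tags (-1.27 ± 0.30, adjusted p = 0.00402). Hspa8, the constitutive HSC70 chaperone, held 34 and 27, 29 and 9, and 20 and 26 (-1.07 ± 0.30, adjusted p = 0.0135). Fkbp2, a prolyl isomerase of the ER, and Qpctl, a glutaminyl cyclase of the Golgi, differed by -1.09 ± 0.31 and -1.05 ± 0.33.
The remainder were Hnrnpul1, an RNA-binding protein (-1.18 ± 0.34), Plekhf2 and Appl1, endosomal proteins (-1.11 ± 0.31 and -1.10 ± 0.35), Sdccag8 and Tacc1, centrosomal proteins (-1.11 ± 0.32 and -1.10 ± 0.33), Bank1, a signaling scaffold known from B cells (-1.02 ± 0.33), and the uncharacterized 1700012D14Rik (-1.18 ± 0.37). Their adjusted p ran from 0.0135 at Hspa8 to 0.0387 at Bank1, apart from Ccl2, Birc6 and Pcx with smaller values. In all 15 both Veh levels lay above both RGFP966 + KLA levels, and the libraries of these conditions did not overlap at 43.0% of constitutive promoter peaks and 54.7% of all peaks.
The gained peak was at Map9, which encodes a microtubule-associated protein. It held 14 and 9 tags in Veh, 20 and 16 in KLA and 42 and 39 in RGFP966 + KLA, a log2 difference of 1.14 ± 0.32 against Veh (adjusted p = 0.0156). Both inhibitor levels, 2074 and 2008, exceeded the other 4. None of the 15 lost peaks or Map9 was called for RGFP966 + KLA against KLA, where Map9 differed by 0.78 ± 0.29 (adjusted p = 0.199), Birc6 by -0.80 ± 0.32 (adjusted p = 0.24) and Sdccag8 by -0.90 ± 0.32 (adjusted p = 0.176).
The 18 called peaks were of ordinary depth, with means of 15.0 to 25.5 tags. Of these, 14 belonged to all 4 sets of the NCoR f/f table, as did 85.1% of all constitutive promoter peaks. A CpG ratio under 0.6 was found at 4, against 11.8% of all constitutive promoter peaks. In bulk libraries fewer cells with an open promoter and a less open promoter in each cell cannot be told apart.

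**Figure D5:**
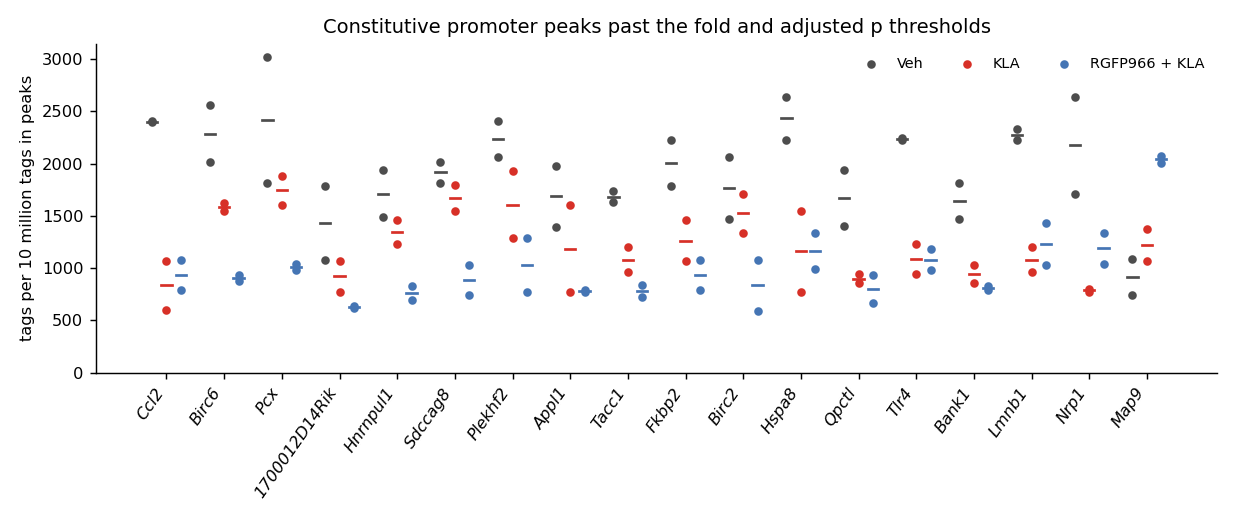
Levels of the 18 constitutive promoter peaks past both thresholds in at least 1 comparison, in tags per 10000000 tags in peaks. Points are single libraries, 2 per condition, and short lines their means. At 17 of the 18 genes the Veh points (grey) lie above the RGFP966 + KLA points (blue), and Map9 shows the opposite.

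The log2 differences were then summarized by gene list, as a description. For KLA against Veh the median log2 differences were 0.06 over the 11 ribosomal protein peaks and 0.00 over 15 of mitochondrial respiration. They were 0.22 over 6 of mitochondrial ribosomes, -0.13 over 19 with Eif or Eef names and 0.04 over 40 of zinc finger proteins. Splicing and hnRNP proteins had -0.25 over 8, the lysosome list -0.34 over 5 and microRNA peaks -0.28 over 8, beside 0.02 over all peaks. For RGFP966 + KLA against Veh the medians were 0.05 for ribosomal proteins and 0.03 for mitochondrial ribosomes. Mitochondrial respiration and zinc finger proteins each had -0.01, Eif and Eef names -0.15 and splicing and hnRNP proteins -0.27. MicroRNA peaks had -0.38, the 2 reference gene peaks -0.42 and the 5 peaks of the lysosome list -0.62, with a range of -0.73 to 0.91. The Mitf peak is counted both in the lysosome list and among the macrophage lineage factors below. The 2 chemokine peaks had -0.84, from Ccl2 (-1.36) and Ccl3 (-0.33). The median was 0.04 over all peaks and -0.12 over all constitutive promoter peaks. With 18 called peaks among 1917, lists of this size would hold few or none, and their counts of calls are not read as results. Sterol pathway peaks had medians of 0.03, -0.16 and -0.11 in the 3 comparisons. The 7 macrophage lineage factor peaks had -0.17, -0.28 and -0.56, and none passed the thresholds. Klf2, a factor that restrains inflammatory activation, held 29 and 22, 37 and 17, and 24 and 20 tags, and its difference for RGFP966 + KLA against Veh was -0.87 ± 0.30 with an adjusted p of 0.0539.

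The constitutive promoter peaks were last divided by CpG content, motifs and neighbouring start sites. The 226 peaks with a CpG ratio under 0.6 had a median level of 4644 per kb, close to the 4608 of the 1685 CpG-rich ones, and 82.7 and 85.5% of the classes were in all 4 NCoR f/f sets. Among other promoter peaks the same split gave 34.3 and 54.4%. A log2 difference over 0.5 in size for KLA against Veh was seen at 17.7% of CpG-poor and 13.9% of CpG-rich constitutive promoter peaks, and at 56.1 and 42.3% of other promoter peaks. CpG-poor constitutive promoter peaks held AP-1 strings at 7.96% and PU.1 strings at 5.75%, against 1.72 and 2.55% of CpG-rich ones, and NFY at 22.1 against 17.9%. SP/KLF went the other way, at 15.5 against 28.2%. The median difference for KLA against Veh was -0.03 both in the 102 peaks with a PU.1 or AP-1 string and in the 161 with 2 or 3 of the 7 promoter motifs. For RGFP966 + KLA these 2 groups had medians of -0.15 and -0.06 against KLA, and -0.18 and -0.08 against Veh. Peaks with another TSS on the opposite strand within 1 kb had a median of 4804 per kb, against 4577 for those without one.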

How the data were processed

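ATAC-seq libraries of 6 WT and 2 NCoR f/f BMDM samples were used. Per the study's methods and the submitters' processing notes, the authors used Bowtie2 for alignment to mm10 and HOMER for peaks, retained those reproducible by IDR, merged the sets of the conditions and counted tags per merged peak with at most 3 tags per position. Versions are not given in the sources used here. The deposited values are raw tag counts per peak, in 1 table for WT and 1 for NCoR f/f, each analysed on its own. No columns of the authors' own comparisons were used.

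Peaks of the WT table that belonged to all 3 peak sets and lay within 2000 bp of a TSS were selected. These peaks, the gene lists and the motif strings were chosen with earlier results of these data known. Levels are tags per 10000000 tags in peaks, divided by peak width in kb where peaks are compared. All 9698 peaks with at least 4 tags in 1 library or more were tested in 1 model of the 6 WT libraries with edgeR 4.0.16 (R 4.3.3), by the quasi-likelihood test with total tags in peaks as library size. A call needed a Benjamini-Hochberg adjusted p under 0.05 and a fold change over 2. The SE after each ± is the size of the log2 difference divided by the square root of the F statistic. It therefore draws on the spread of all 6 WT libraries. An exact permutation test of 2 libraries against 2 cannot give a p below 0.333 and was not used. The fit was run on simulated tags with 200 peaks changed 4-fold and a fixed dispersion of 0.0052, that fitted to the data. Such a run does not cover folds near 2 or a spread that differs between peaks.

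Alternatives were TMM factors, loess offsets, scaling to all tags, DESeq2 1.42.0 with its own size factors or total tags, other tag filters, the 4 compared libraries alone, leaving out each library, a replicate block and a fold of 1.5. Sequence was read from GRCm38 in 200 bp at the peak center, with start sites and UTRs of GENCODE M21. RefSeq promoters (GRCm38.p6) were read in 200 bp centered 80 bp upstream of the start. Overlaps were found with bedtools 2.31.1, at 1 bp or more. Wilson and Poisson intervals cover counting error only, as PCR copies carry no molecular identifiers. Tables and figures were made in Python 3.11.15 (matplotlib 3.10.9, scipy 1.17.1, pandas 2.3.3, numpy 2.4.6).

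Peaks were named by rule: the 12 highest per kb, up to 6 called peaks per direction and comparison, the 3 highest of each gene list, the 4 steadiest with a mean of 60 tags or more, those nearest the limits of the distance, and genes central to the study. The remaining called peaks, other list members and the motif examples were named after their values were seen. Results for some genes are not reported here.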

Additional observations from a re-analysis of the deposited data

How the results depend on the processing

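For KLA against Veh the 0 gained constitutive promoter peaks became 1 with loess offsets, with a replicate block and at a fold of 1.5, and 0 to 1 when 1 library was left out (1 without KLA replicate 2). The 3 lost became 5 with TMM factors, 6 with the replicate block, 5 at a fold of 1.5 and 0 with both forms of DESeq2. When 1 library was left out, the peaks called were not always the same 3. For RGFP966 + KLA against KLA no alternative called any. For RGFP966 + KLA against Veh the 1 gained became 6 with loess offsets, 2 with the 4 compared libraries alone, 2 with the replicate block, 4 at a fold of 1.5, 0 with scaling to all tags and with both forms of DESeq2, and 0 to 2 when 1 library was left out (0 without Veh replicate 2, and 2 without KLA replicate 1, KLA replicate 2 or RGFP966 + KLA replicate 1). The 15 lost became 22 with TMM factors, 8 with loess offsets, 2 with scaling to all tags, 0 with both forms of DESeq2, 23 at a fold of 1.5, 17 with the replicate block, and 5 to 15 when 1 library was left out (6 without Veh replicate 1, 5 without RGFP966 + KLA replicate 1 and 8 without RGFP966 + KLA replicate 2). The cause was not tested. Deviations of same-numbered libraries correlated at -0.002, 0.006 and 0.026. At a median of 10 to 17 tags per library over all peaks, counting error dominates these deviations. They cannot show whether replicate numbers pair the libraries. Over the 19 calls of named peaks, 117 alternatives kept the call, 92 did not and 0 reversed the direction, and DESeq2 kept 0 of 19. The kept alternatives include fits without a library of the condition that a comparison does not use, which could hardly change the call. A lone library left in a condition was assumed to vary like the others.

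The median CpG ratio was 0.832 over whole peaks in place of 0.842, and 96.9% had a counterpart at an overlap of 50% in place of 99.9%. Median levels scaled to all tags were 26.4, 23.4 and 25.2 in place of 1516, 1466 and 1387, and the KLA median was 1444 or 1456 with 1 KLA library. With 17 to 28 tags in a typical peak and library, small differences were not detectable at this depth.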
